A study of Mus musculus with 50 samples.

Results

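The genes described here encode 4 ligands of the transforming growth factor beta (TGF-β) superfamily or their subunits (Tgfb1, Tgfb2, Tgfb3 and Inhba), the receptor pair Tgfbr1 and Tgfbr2, the latent TGF-β binding proteins Ltbp1 and Ltbp2, and the SMAD proteins Smad3 and Smad7. They were picked out by gene symbol from a list chosen with earlier results of these data known. All 10 were present among the 56691 genes of the table. Poly(A) RNA of colon, narrowed by the series text to distal colon, had been sequenced from 50 mice of the BALBC genotype, 1 library per mouse and 10 mice per group. The first group, called vehicle here, received trinitrobenzene sulfonic acid (TNBS), a hapten that provokes colitis in mice, and vehicle. A further 3 groups received TNBS and A1007 at 10, 30 or 90 mpk (unit as the labels give it), and the last group was sham. The series text calls A1007 an oral, gut-enriched agonist of AhR, the aryl hydrocarbon receptor, which turns on genes once it has bound a small molecule. The sources used here give neither the treatment of the sham mice nor the age and sex of any mouse. No transgene or deletion is named for any group, and all mice carry the same batch number, so differences between batches could not be examined.

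TGF-β is secreted in a latent form, held by its own propeptide and by a latent TGF-β binding protein that anchors it in the extracellular matrix. Integrins and proteases release it, after which the ligand brings together a type II and a type I receptor and the type I receptor phosphorylates SMAD2 and SMAD3. In the gut this pathway restrains T cells and macrophages and drives matrix deposition by fibroblasts, and it switches on its own inhibitor, SMAD7. Activin A, a dimer of the subunit encoded by Inhba, uses other receptors but the same SMADs.

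Depth ran from 14373337 to 20446967 counts per library, and the lowest count of any of the 10 genes in any library was 26, for Ltbp2. Markers of colonic epithelium, fibroblasts and smooth muscle were detected in every group, with epithelial markers summing to between 11926 and 28317 CPM (counts scaled to a fixed library total) per library. Replicate 6 of vehicle stood apart: 5 pancreatic acinar genes summed to 34699 CPM in it, against 0.0490 to 4.56 CPM in sham mice. In 7 further libraries the sum was over 100 CPM: vehicle replicates 2, 5 and 9, 10 mpk replicate 7, 30 mpk replicate 2, at 2086 CPM, and 90 mpk replicates 2 and 4. Calls of the 10 genes that were lost when all 8 were left out together, a refit chosen after seeing the data, are given below. Many sizes changed in that refit without a change of call, and these are given for some genes only. The same holds for sizes without replicate 6.

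Promoter windows from RefSeq (build GRCm38.p6, 250 bases before to 50 bases after a gene's start) were at hand for 8 of the 10 genes, Tgfb3 and Smad7 being the other ones. They were searched on both strands for the core of the AhR site, TNGCGTG, because the drug is an AhR agonist. The 8 genes have 10 windows, Tgfbr1 and Ltbp1 having 2 each. Matches were found in 3 of these 10, those of Tgfb1, Tgfbr2 and Ltbp2, and 5.07% of the 32851 promoter windows of the table held one. The core holds the letters CG, and that share takes no account of how rich a window is in G and C. The 3 windows held 77.0%, 59.0% and 61.0% of these bases. The 3 stretches are shown because they belong to genes whose levels are described below, with the match in capitals and 25 bases on either side. That of Tgfb1 lies at chr7:25686859-25686915 on the + strand, 118 to 112 bases before the start, with the core on the opposite strand. That of Tgfbr2 lies at chr9:116175472-116175528 on the - strand, 140 to 134 bases before the start. That of Ltbp2 lies at chr12:84876499-84876555 on the - strand, 39 to 33 bases before the start.
Tgfb1: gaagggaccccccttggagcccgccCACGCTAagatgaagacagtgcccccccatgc
Tgfbr2: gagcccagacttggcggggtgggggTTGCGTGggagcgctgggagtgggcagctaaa
Ltbp2: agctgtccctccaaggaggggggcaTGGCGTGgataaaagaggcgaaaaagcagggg

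The SMAD motif CAGACA was found in windows of Tgfb2, Tgfbr1 and Ltbp1 (in 21.04% of all windows). For Tgfbr1 and Ltbp1 it lay only in the downstream one of their 2 windows. The AP-1 motif TGANTCA was found in none of the 8 genes (in 7.81% of all windows). The 3 stretches printed above held no match to either. A match of letters is not a binding site, and no binding was measured.

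In vehicle mice, 6 of the 10 genes were higher than in sham mice and 1 was lower. Inhba had the largest difference of the 10. Ltbp2, Tgfb1, Tgfb3, Tgfbr2 and, by little, Ltbp1 were also higher, whereas Smad7, the feedback inhibitor, was lower. The order of Ltbp2 and Tgfb1 was not firm, with log2 fold changes of 0.96 and 0.98 without vehicle replicate 9. Tgfb2, Tgfbr1 and Smad3 did not pass the test. These 7 calls of 10 stand against 31.7% of the 17928 genes tested by edgeR's quasi-likelihood test at a Benjamini-Hochberg adjusted p under 0.05, 18.2% higher and 13.5% lower. Of all called genes 57.5% were higher, and 40.2% with quantile normalization. The median log2 fold change was 0.54 over the 10 genes and 0.02 over all genes tested. This comparison, and each one below, was fitted on the 20 mice it names. Without the libraries holding acinar RNA the same number, 7, was called, with log2 fold changes of 2.86 for Inhba, 0.97 for Ltbp2, 0.73 for Tgfb1, 0.62 for Tgfb3 and 0.56 for Tgfbr2. For each of these 5 genes the vehicle mouse with the highest value was among the libraries left out.

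Among the ligands, Tgfb1 (ENSMUSG00000002603, GRCm39 chr7:25386427-25404502), the main isoform of immune cells, ran from 4.69 to 11.64 FPKM with a median of 6.755 in vehicle mice, against 3.08 to 5.53 FPKM with a median of 3.54 in sham mice. FPKM is the count of a gene per kilobase of its exons after scaling to the depth of the library. In 9 of 10 vehicle mice Tgfb1 lay above all sham mice. Its log2 fold change was 1.09 (SE 0.16, adjusted p = 4.13e-05). Tgfb3 (ENSMUSG00000021253, chr12:86103519-86125815), an isoform made mostly by mesenchymal cells, ran from 3.80 to 9.22 FPKM with a median of 4.985 in vehicle mice, against 2.03 to 3.57 FPKM with a median of 3.09 in sham mice. The groups did not overlap, and the log2 fold change was 0.95 (SE 0.16, adjusted p = 1.25e-04). By the bounds of the whole genes, Tgfb3 overlaps Ttll5 on the opposite strand, and whether their exons overlap was not checked. The strand setting of the counting is not given in the sources used here. It is therefore not known whether reads of any shared exons were told apart, and the value of Tgfb3 is uncertain. Ttll5 itself averaged 0.828 ± 0.156 FPKM in vehicle mice and 0.872 ± 0.0853 FPKM in sham mice (SD, n = 10 each; log2 fold change -0.08, adjusted p = 0.479). Tgfb2 (ENSMUSG00000039239, chr1:186354989-186438186) ran from 1.47 to 3.13 FPKM in vehicle mice, against 1.62 to 2.91 FPKM in sham mice, and these ranges nearly coincided. Its log2 fold change of 0.19 had a 95% interval from -0.07 to 0.46 (adjusted p = 0.258).

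Inhba (ENSMUSG00000041324, chr13:16186436-16206206), the gene of the activin A subunit, ran from 0.54 to 11.74 FPKM with a median of 4.415 in vehicle mice, against 0.26 to 0.45 FPKM with a median of 0.395 in sham mice. All 10 vehicle mice lay above all sham mice, but they differed widely from each other, with a coefficient of variation of 85.6% in vehicle mice, the highest of the 10 genes there, and 15.8% in sham mice. The log2 fold change was 3.55 (SE 0.49, adjusted p = 2.90e-05). On the log2(FPKM + 0.5) scale, which understates changes of low genes, limma gave 2.05, still past the threshold. Without vehicle replicate 6, which had the lowest Inhba value of the group, the log2 fold change was 3.67.

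**Figure D1:**
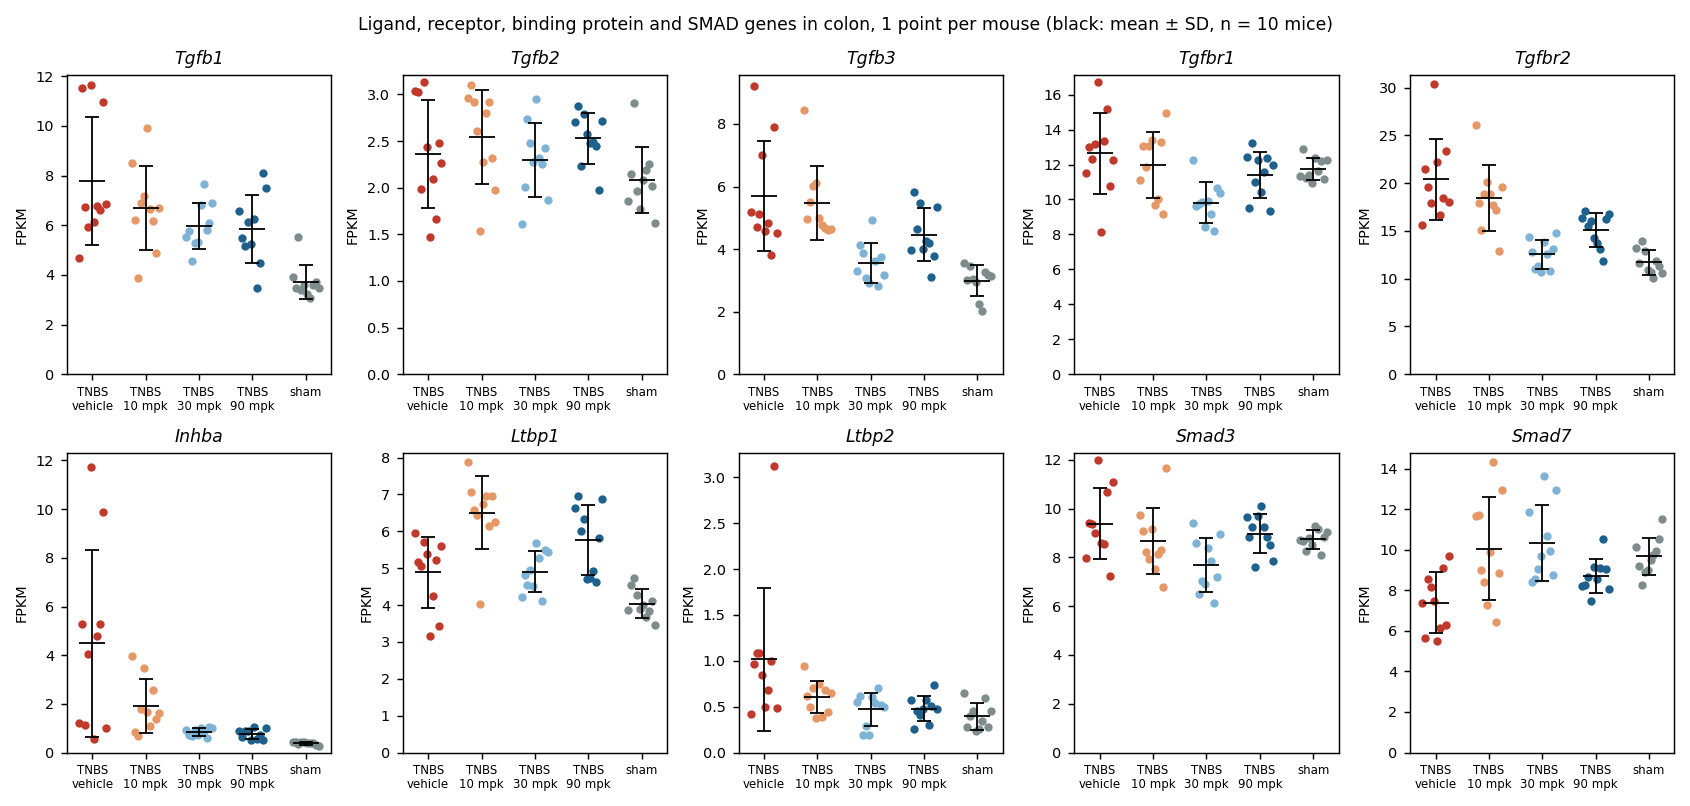
FPKM (y axis, linear, from 0) of the 10 genes in each of 50 mice by group (x axis), 1 point per mouse, with the mean and SD of 10 mice in black. Vehicle mice spread from 0.54 to 11.74 FPKM for Inhba while sham mice stay between 0.26 and 0.45 FPKM, and for Tgfb2 the values of all groups overlap.

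Of the latent TGF-β binding proteins, Ltbp2 (ENSMUSG00000002020, chr12:84829986-84923306) is known to bind fibrillin and, unlike Ltbp1, not latent TGF-β. It ran from 0.42 to 3.12 FPKM with a median of 0.900 in vehicle mice, against 0.23 to 0.65 FPKM with a median of 0.370 in sham mice. In 7 of 10 vehicle mice it lay above all sham mice, and replicate 9 alone held the value of 3.12, the next being 1.09 FPKM. The log2 fold change was 1.43 (SE 0.34, adjusted p = 0.00302), and 0.96 without vehicle replicate 9. Ltbp1 (ENSMUSG00000001870, chr17:75312563-75699507), which tethers the latent complex to the matrix, ran from 3.15 to 5.94 FPKM in vehicle mice, against 3.45 to 4.74 FPKM in sham mice. The groups overlapped, with 7 vehicle mice above and 2 below all sham mice, and its log2 fold change of 0.27 (SE 0.08, adjusted p = 0.0155) did not pass with limma on log2(FPKM + 0.5), at an adjusted p of 0.0774, or with quantile normalization, at 0.0573.

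The receptor genes differed from each other. Tgfbr2 (ENSMUSG00000032440, chr9:115913361-116004428), the type II receptor that binds the ligand first, ran from 15.63 to 30.36 FPKM with a median of 19.06 in vehicle mice, against 10.08 to 14 FPKM with a median of 11.52 in sham mice. No vehicle mouse reached down to the sham range, and the log2 fold change was 0.82 (SE 0.11, adjusted p = 1.08e-05). Tgfbr1 (ENSMUSG00000007613, chr4:47353222-47414931), the type I receptor kinase, ran from 8.16 to 16.72 FPKM with a median of 12.68 in vehicle mice, against 10.94 to 12.9 FPKM with a median of 11.54 in sham mice. Vehicle mice lay on both sides of the sham range, 5 above and 2 below, and the log2 fold change of 0.10 had a 95% interval from -0.05 to 0.26 (adjusted p = 0.285).

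Within the cell, Smad7 (ENSMUSG00000025880, chr18:75500600-75529006), which blocks the type I receptor and recruits ubiquitin ligases to it, ran from 5.48 to 9.70 FPKM with a median of 7.445 in vehicle mice, against 8.26 to 11.54 FPKM with a median of 9.63 in sham mice. In 7 of 10 vehicle mice it was below all sham mice, and it fell by 0.39 on the log2 scale (SE 0.09, adjusted p = 0.00272). Smad3 (ENSMUSG00000032402, chr9:63554049-63665276), which carries the signal to the nucleus, ran from 7.24 to 11.99 FPKM in vehicle mice, against 8.11 to 9.30 FPKM in sham mice. Vehicle mice spread to both sides of the sham range, and the log2 fold change of 0.10 had a 95% interval from -0.03 to 0.23 (adjusted p = 0.208).

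Markers of other cell types moved with these genes, and in bulk tissue fewer cells of a type and less RNA per cell cannot be told apart. All 6 fibroblast markers rose in vehicle mice, with sums from 1182 to 2262 CPM in vehicle mice, against 561 to 891 CPM in sham mice. All 7 macrophage markers rose, with sums from 266 to 558 CPM in vehicle mice, against 123 to 172 CPM in sham mice. All 6 neutrophil markers rose, with sums from 27.4 to 4223 CPM in vehicle mice, against 4.28 to 10.5 CPM in sham mice. Of 4 endothelial markers 3 rose (sums of 187 to 339 CPM in vehicle mice, 116 to 209 CPM in sham mice), all 5 mast cell markers rose (8.77 to 876 CPM in vehicle mice, 4.99 to 34.0 CPM in sham mice), and of 5 smooth muscle markers none was called (1987 to 6692 CPM in vehicle mice, 3162 to 4785 CPM in sham mice). None of 4 T cell and 4 B cell markers was called, while all 5 acinar markers and both squamous epithelial markers that could be tested, of 4, rose. Of 8 epithelial markers 1 fell and none rose, with sums from 15115 to 22248 CPM in vehicle mice, against 18389 to 26251 CPM in sham mice. No marker of any list was at 0 in all mice of a group. The part of these markers in the differences of the 10 genes was not tested.

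Vehicle replicates 5 and 9, with the highest Inhba values, also had the highest neutrophil and fibroblast sums, but the other vehicle mice did not follow this for fibroblasts. Vehicle replicates 5 and 9 had Inhba at 11.74 and 9.87 FPKM, and their neutrophil markers summed to 2389 and 4223 CPM. Their fibroblast markers summed to 1942 and 2262 CPM, against at most 1714 CPM in the other vehicle mice. Their acinar genes summed to 1088 and 413 CPM, and replicate 5 had the highest macrophage sum of the group, 558 CPM. Vehicle replicates 1, 3 and 10 had Inhba at 1.20, 1.14 and 1.01 FPKM with neutrophil sums of 27.4, 36.4 and 40.1 CPM. Their fibroblast sums were 1383, 1474 and 1393 CPM. Those of vehicle replicates 7 and 8 were lower, at 1182 and 1324 CPM, although their Inhba was 4.80 and 5.29 FPKM. Replicate 6 departed from the pattern of the neutrophil sums, with Inhba at 0.54 FPKM and a neutrophil sum of 269 CPM. Whether any of these marker lists has a part in the spread of Inhba was not tested.

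**Figure D2:**
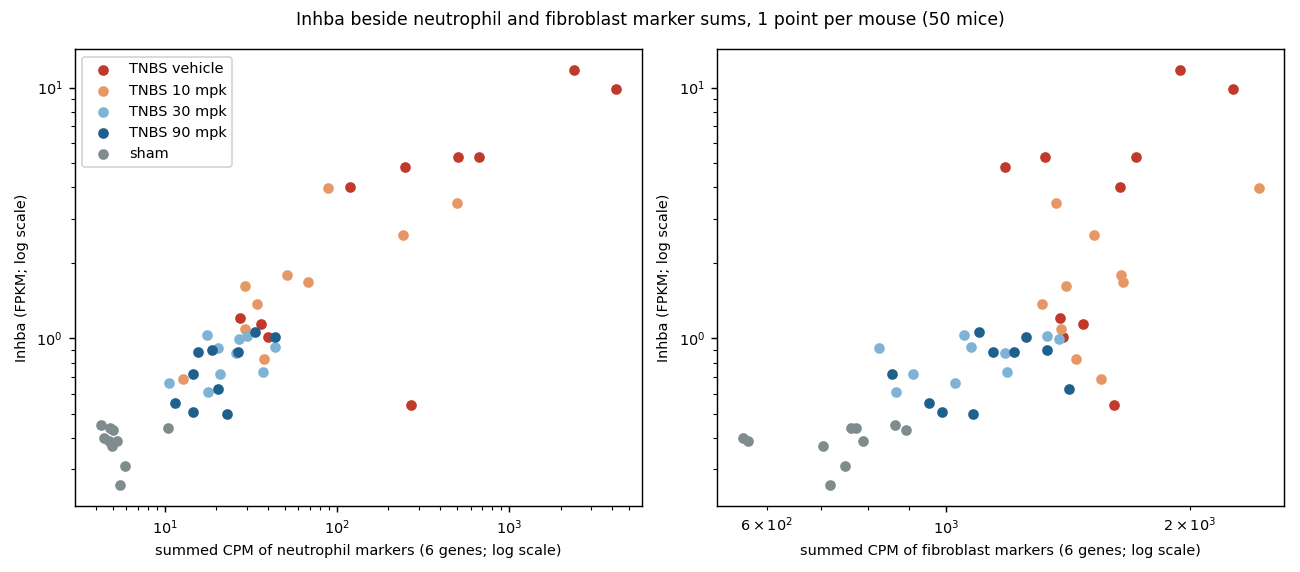
Inhba (y axis, FPKM, log scale) against the summed CPM of 6 neutrophil markers (left, log scale) and of 6 fibroblast markers (right, log scale), 1 point per mouse, 50 mice, coloured by group. Vehicle replicates 5 and 9 sit at the top right with 11.74 and 9.87 FPKM, and vehicle replicate 6 sits low, at 0.54 FPKM beside a neutrophil sum of 269 CPM.

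Against vehicle, A1007 at 30 mpk had lower levels of 6 of the 10 genes (Inhba, Ltbp2, Tgfbr2, Tgfb3, Tgfbr1 and Smad3) and a higher level of Smad7. At 90 mpk 3 were lower (Inhba, Ltbp2 and Tgfbr2) and none was higher, and at 10 mpk none passed the test. The share of all genes called was 28.9% at 30 mpk (12.9% higher, 16% lower), 17.3% at 90 mpk (6.93% higher, 10.4% lower) and 0.0223% at 10 mpk, which is 4 genes. With the 7 calls of 10 at 30 mpk the 10 genes stood above that background, and with 3 of 10 at 90 mpk nearer to it. The 10 were chosen with earlier results of these data known, so these counts are descriptions and no test of the list. Of all called genes 44.6% were higher at 30 mpk (57.8% with quantile normalization) and 40.0% at 90 mpk (60% with quantile normalization and 58.5% with limma on FPKM). The median log2 fold change over the 10 genes was -0.10, -0.34 and -0.28 at 10, 30 and 90 mpk, against medians of all genes between -0.0086 and -0.0065. These 3 comparisons share the same 10 vehicle mice, and the first comparison uses them too, so their values are not independent of each other. Without the libraries holding acinar RNA, of which 4 were vehicle libraries, 5 of the 10 genes were called at 30 mpk and 2 at 90 mpk.

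Inhba ran from 0.61 to 1.03 FPKM with a median of 0.890 in 30 mpk mice, and from 0.50 to 1.06 FPKM with a median of 0.800 in 90 mpk mice, against the vehicle range of 0.54 to 11.74 FPKM with its median of 4.415. All 30 mpk mice and 8 of 10 mice given 90 mpk lay within the lowest part of the vehicle range, where vehicle replicates 6 and 10 also lay, and 2 mice given 90 mpk lay below it. The log2 fold change was -2.39 at 30 mpk (SE 0.46, adjusted p = 0.00127) and -2.59 at 90 mpk (SE 0.48, adjusted p = 0.00168), and limma on log2(FPKM + 0.5) gave -1.46 and -1.56. Without the libraries holding acinar RNA, which include the mice with the highest Inhba, the values were -1.68 and -1.91, both past the threshold. At 10 mpk Inhba ran from 0.69 to 3.96 FPKM with a median of 1.65. All 10 of these mice lay within the vehicle range, and the log2 fold change of -1.26 had a 95% interval from -2.28 to -0.23 (adjusted p = 0.247).

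Tgfbr2 ran from 10.75 to 14.74 FPKM with a median of 12.71 in 30 mpk mice, against 15.63 to 30.36 FPKM with a median of 19.06 in vehicle mice. These groups did not overlap, and Tgfbr2 fell by 0.67 on the log2 scale (SE 0.11, adjusted p = 4.04e-04). In 90 mpk mice it ran from 11.85 to 17.05 FPKM with a median of 15.78, 5 of 10 mice lay below all vehicle mice, and it fell by 0.47 (SE 0.11, adjusted p = 0.0057). The falls were 0.43 and 0.26 without the libraries holding acinar RNA, which include the vehicle mouse with the highest Tgfbr2, both past the threshold. Tgfbr1 ran from 8.17 to 12.28 FPKM with a median of 9.81 in 30 mpk mice, against 8.16 to 16.72 FPKM with a median of 12.68 in vehicle mice. All 30 mpk mice lay inside the wide vehicle range, and Tgfbr1 fell by 0.32 (SE 0.08, adjusted p = 0.00755). At 90 mpk its log2 fold change was -0.17 (95% interval -0.34 to 0.01, adjusted p = 0.185).

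Tgfb3 ran from 2.83 to 4.92 FPKM with a median of 3.455 in 30 mpk mice, against 3.80 to 9.22 FPKM with a median of 4.985 in vehicle mice. In 7 of 10 mice given 30 mpk it was below all vehicle mice, and it fell by 0.65 on the log2 scale (SE 0.16, adjusted p = 0.00508). Ttll5, on the other strand, had a log2 fold change of -0.30 in the same comparison (adjusted p = 0.0518), and its part in the value of Tgfb3 was not tested. Tgfb3 fell by 0.36 at 30 mpk without the libraries holding acinar RNA (adjusted p = 0.0238). At 90 mpk Tgfb3 had a log2 fold change of -0.39 (95% interval -0.72 to -0.07, adjusted p = 0.0904). Tgfb1, the other isoform that was higher in vehicle mice than in sham mice, did not pass at any dose. It ran from 4.57 to 7.65 FPKM in 30 mpk mice and from 3.46 to 8.12 FPKM in 90 mpk mice, against 4.69 to 11.64 FPKM in vehicle mice, with log2 fold changes of -0.36 (adjusted p = 0.0967) and -0.45 (adjusted p = 0.0821). It passed at 30 and 90 mpk in a fit over all 50 mice, at adjusted p = 0.0464 and 0.0193, and when vehicle replicate 1, the mouse with the lowest value of its group, was left out, at 0.0372 and 0.0378. Without the libraries holding acinar RNA its log2 fold changes at 30 and 90 mpk were 0.01 and -0.09, at adjusted p of 0.950 and 0.752. Those libraries include vehicle replicates 2, 5 and 9, which had the highest Tgfb1 of the group (11.53, 11.64 and 10.96 FPKM). The same mice had its highest Tgfb3 (9.22, 7.02 and 7.90 FPKM). Whether acinar RNA itself has a part in these changes was not tested. Tgfb2 had log2 fold changes of 0.10, -0.0036 and 0.07 at 10, 30 and 90 mpk, none past the test.

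Ltbp2 ran from 0.19 to 0.70 FPKM with a median of 0.530 in 30 mpk mice and from 0.26 to 0.74 FPKM with a median of 0.480 in 90 mpk mice, against 0.42 to 3.12 FPKM with a median of 0.900 in vehicle mice. At each of these doses 3 of 10 mice lay below all vehicle mice. Ltbp2 fell by 1.13 on the log2 scale at 30 mpk (adjusted p = 0.0211) and by 1.16 at 90 mpk (adjusted p = 0.0176). Without vehicle replicate 9 the falls were 0.67 and 0.71, still past the threshold. The call at 30 mpk was lost without the filter on low counts, at an adjusted p of 0.0516, and with the replicate number as a block, at 0.0627. Both calls were lost without the libraries holding acinar RNA, at 0.0561 and 0.0774, and that at 90 mpk with limma on FPKM, at 0.0514, and with quantile normalization, at 0.0509. Ltbp1 had log2 fold changes of 0.42, 0.05 and 0.22 at 10, 30 and 90 mpk, with adjusted p of 0.113, 0.708 and 0.142. In 9 of 10 mice given 10 mpk it nevertheless lay above all vehicle mice, the exception being replicate 5 with the lowest value of the group, 4.03 FPKM. Without that mouse the log2 fold change at 10 mpk was 0.48 and passed (adjusted p = 0.0176).

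Smad7 ran from 8.42 to 13.63 FPKM with a median of 9.805 in 30 mpk mice, against 5.48 to 9.70 FPKM with a median of 7.445 in vehicle mice. In 5 of 10 mice given 30 mpk it was above all vehicle mice, and it rose by 0.53 on the log2 scale (SE 0.11, adjusted p = 0.0019). At 10 and 90 mpk the log2 fold change was 0.44 (95% interval 0.16 to 0.72, adjusted p = 0.170) and 0.21 (95% interval 0.02 to 0.41, adjusted p = 0.116). Without vehicle replicate 10, the mouse with the highest value, the change at 90 mpk was 0.26 and passed (adjusted p = 0.0407). Smad3 ran from 6.14 to 9.40 FPKM in 30 mpk mice, against 7.24 to 11.99 FPKM in vehicle mice, with 5 mice below all vehicle mice. It fell by 0.24 (adjusted p = 0.0344). That call lay near the threshold, and the log2 fold change ran from -0.28 to -0.21 over 20 refits without 1 library. The call ended without any 1 of vehicle replicates 5, 8 and 10 or 30 mpk replicates 3, 4, 5, 7, 8 and 9. The adjusted p was then at most 0.0703. The call was also lost with the replicate number as a block (adjusted p = 0.0616), without the filter (0.0673), with quantile normalization (0.0565) and without the libraries holding acinar RNA (0.0565).

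**Figure D3:**
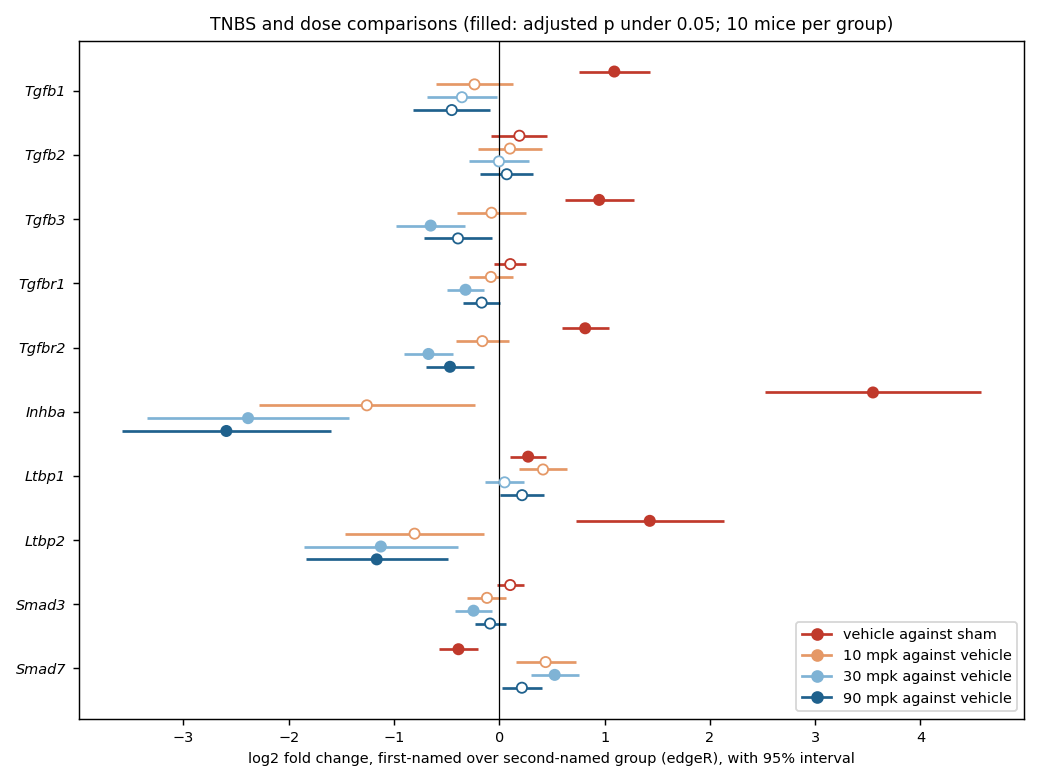
Log2 fold changes (x axis) of the 10 genes in vehicle against sham mice and in each dose against vehicle mice, fitted with edgeR on 10 mice per group, with 95% intervals as lines and filled points where the adjusted p was under 0.05. Inhba spans from -2.59 at 90 mpk to 3.55 in vehicle against sham mice, and Smad7 is the gene that is lower in vehicle mice and higher at 30 mpk.

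At 10 mpk no gene of the 10 was called, 4 had an unadjusted p under 0.05 (Inhba, Ltbp1, Ltbp2 and Smad7), DESeq2 called 1 (Ltbp1), the fit over all 50 mice called these 4, and limma on FPKM called 0. Of the 17928 genes, 2664 had an unadjusted p under 0.05 at this dose. Without the libraries holding acinar RNA none of the 10 was called, and the differences of the 4 genes named here were smaller. Their log2 fold changes were then -0.52 for Inhba, 0.30 for Ltbp1, -0.31 for Ltbp2 and 0.25 for Smad7 (adjusted p from 0.384 to 0.613). The number of called genes, 4, rests on single mice: it was 385 without 10 mpk replicate 5, 77 without vehicle replicate 1 and 23 without 10 mpk replicate 10, and 2 without any 1 of vehicle replicates 8 and 10 and 10 mpk replicates 6 and 7.

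Marker lists moved with the doses as well. At 30 mpk all 6 neutrophil markers, 5 of 6 fibroblast markers and 5 of 7 macrophage markers fell against vehicle, and at 90 mpk all 6, 5 of 6 and all 7 fell. Neutrophil sums ran from 10.6 to 44.0 CPM in 30 mpk mice and 11.5 to 43.6 CPM in 90 mpk mice, against 27.4 to 4223 CPM in vehicle mice. Fibroblast sums ran from 824 to 1377 CPM in 30 mpk mice and 856 to 1419 CPM in 90 mpk mice, against 1182 to 2262 CPM in vehicle mice, and macrophage sums from 194 to 281 CPM and 189 to 317 CPM, against 266 to 558 CPM. In 10 mpk mice the neutrophil sums ran from 12.8 to 503 CPM, the fibroblast sums from 1313 to 2433 CPM and the macrophage sums from 233 to 577 CPM. At 30 mpk 3 of 4 B cell, 3 of 8 epithelial and 1 of 5 smooth muscle markers rose and 1 of 4 endothelial markers fell, and at 90 mpk 1 smooth muscle marker rose and 1 endothelial marker fell. Mast cell, T cell and acinar markers were not called at either dose, and of the 2 squamous markers tested 1 fell at 30 mpk and both at 90 mpk. The part of these markers in the results for the 10 genes was not tested. Leaving out vehicle replicate 6 changed no call of the 10 genes at 30 or 90 mpk, and gave Tgfbr2 a fall of 0.64 at 30 mpk and 0.44 at 90 mpk.

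Treated mice were also set against sham mice, to see which levels still differed from those of sham mice. Inhba was the gene whose treated mice all lay above all sham mice at each dose, with log2 fold changes of 2.29, 1.14 and 0.94 at 10, 30 and 90 mpk (adjusted p = 2.51e-06, 7.01e-08 and 2.83e-05). In the fit over all 50 mice the difference at 90 mpk was 0.95 with an adjusted p of 0.0521. Tgfb1 was higher at each dose as well, by 0.86, 0.71 and 0.63 (adjusted p = 2.69e-05, 9.92e-07 and 2.87e-04), with 8, 6 and 5 of 10 mice above all sham mice. Tgfb3 was higher by 0.87, 0.27 and 0.55 (adjusted p = 1.06e-05, 0.0348 and 2.91e-04), and its call at 30 mpk was lost in the fit over all 50 mice, with limma on FPKM, with quantile normalization and with the replicate number as a block, at adjusted p between 0.0532 and 0.0981. Ltbp1 was higher by 0.69, 0.30 and 0.48 (adjusted p = 5.60e-06, 3.29e-04 and 3.68e-05).

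Tgfbr2 was higher than in sham mice by 0.65 at 10 mpk (adjusted p = 1.25e-05) and by 0.34 at 90 mpk (adjusted p = 1.55e-04), and at 30 mpk its log2 fold change of 0.12 had a 95% interval from -0.02 to 0.26 (adjusted p = 0.131). Tgfbr1 was lower than in sham mice at 30 mpk, where 9 of 10 mice lay below all sham mice. It fell by 0.24 on the log2 scale there (SE 0.06, adjusted p = 0.00105), and its log2 fold changes of 0.03 at 10 mpk and -0.07 at 90 mpk did not pass. Smad3 fell by 0.16 against sham mice at 30 mpk (adjusted p = 0.0421), a call lost in the fit over all 50 mice, without the filter and with quantile normalization, at adjusted p between 0.0570 and 0.0926. Smad7 fell by 0.18 at 90 mpk (adjusted p = 0.0214), and by the same 0.18 with an adjusted p of 0.220 in the fit over all 50 mice. Ltbp2 was higher by 0.62 at 10 mpk (adjusted p = 0.0192, and 0.0685 in the fit over all 50 mice), and Tgfb2 by 0.25 at 90 mpk (adjusted p = 0.0141, and 0.102 in that fit). In all, 6, 6 and 7 of the 10 genes were called against sham at 10, 30 and 90 mpk, beside 36%, 59% and 45.2% of all genes tested, so the count at 30 mpk was at the background. The counts were 6, 5 and 5 without the libraries holding acinar RNA, Tgfb3 at 30 mpk and Tgfb2 and Smad7 at 90 mpk being lost at adjusted p between 0.0580 and 0.0785. Markers differed from sham mice too: at each dose all 6 neutrophil, 7 macrophage, 5 mast cell and 5 acinar markers, 4 of 5 smooth muscle markers and both squamous markers tested were higher, as were 6, 5 and 6 of 6 fibroblast, 4, 3 and 4 of 4 endothelial, 2, 4 and 4 of 4 T cell and 2, 4 and 2 of 4 B cell markers. Of 8 epithelial markers 1, 5 and 6 were lower, and 1 was higher at 30 mpk. The part of these markers in the differences was not tested. The comparisons with sham share the same 10 sham mice.

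Between doses, 30 mpk mice had lower levels than 10 mpk mice of Tgfb3 (log2 fold change -0.58, adjusted p = 0.0165), Tgfbr2 (-0.51, adjusted p = 0.0104), Inhba (-1.13, adjusted p = 0.0258) and Ltbp1 (-0.37, adjusted p = 0.0427). These 4 calls of 10, all lower, stand beside 2.15% of all genes, 1.63% lower. In 90 mpk mice Inhba was lower than in 10 mpk mice by 1.34 on the log2 scale (adjusted p = 0.0366), 1 call of 10 beside 0.496% of all genes, 0.39% lower. Markers were lower as well: between 30 and 10 mpk 4 of 6 fibroblast markers (list median -0.58 on the log2 scale), 3 of 7 macrophage markers (list median -0.52) and 1 of 6 neutrophil markers, and between 90 and 10 mpk 2 fibroblast markers and 1 macrophage marker. Their part in these calls was not tested. These calls depended on the setting. Between 30 and 10 mpk all 4 were kept with RLE scaling, with DESeq2 and in the fit over all 50 mice, and 3 with limma on FPKM. Without the filter and with quantile normalization 2 were kept, and 1 with the replicate number as a block. The call of Inhba between 90 and 10 mpk was kept with RLE scaling and DESeq2 and lost in the other settings, the block among them. Without the libraries holding acinar RNA Ltbp1 between 30 and 10 mpk (adjusted p = 0.0783) and Inhba between 90 and 10 mpk (adjusted p = 0.0746) were lost. Between 90 and 30 mpk, Tgfbr2 was higher at 90 mpk by 0.20 (adjusted p = 0.0472) and Smad7 fell by 0.31 (adjusted p = 0.0154), 2 calls of 10 beside 17.1% of all genes, and neither passed in the fit over all 50 mice. The call of Tgfbr2 was also lost without the libraries holding acinar RNA (adjusted p = 0.149).

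Compared per length, Tgfbr2 and Tgfbr1 had the highest levels of the 10 genes in sham mice, at 11.7 ± 1.28 and 11.7 ± 0.649 FPKM, followed by Smad7 at 9.68 ± 0.925 and Smad3 at 8.74 ± 0.381 FPKM (mean and SD, n = 10). The lowest were Inhba at 0.388 ± 0.0614 and Ltbp2 at 0.393 ± 0.143 FPKM. In vehicle mice Tgfbr2 led, at 20.4 ± 4.29 FPKM, and Inhba, at 4.49 ± 3.84 FPKM, was near Ltbp1, at 4.89 ± 0.965 FPKM. With groups ordered by mean level, Inhba ran from vehicle through 10, 30 and 90 mpk to sham, and of neighbours in that order 10 and 30 mpk differed and 90 mpk and sham differed, while vehicle and 10 mpk and the doses of 30 and 90 mpk did not differ past the threshold. Tgfb1 had the same order, with 90 mpk and sham as the only neighbours that differed. Tgfbr2 ran in the order vehicle, 10 mpk, 90 mpk, 30 mpk and sham, and only 90 and 30 mpk, as neighbours, differed. Smad7 was highest at 30 mpk, then at 10 mpk, in sham, at 90 mpk and in vehicle mice, with sham and 90 mpk the only neighbours that differed.

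The 3 TGF-β isoforms are made from separate genes and bind the same receptors. Their summed level was 15.8 ± 4.41 FPKM in vehicle, 14.7 ± 2.38 in 10 mpk, 11.8 ± 1.40 in 30 mpk, 12.8 ± 1.80 in 90 mpk and 8.77 ± 1.28 FPKM in sham mice (SD, n = 10 each). Tgfb1 made up 48.8 ± 5.72% of that sum in vehicle mice and 42.1 ± 1.94% in sham mice, and Tgfb2 15.4 ± 4.25% in vehicle mice and 23.9 ± 3.24% in sham mice. At 10, 30 and 90 mpk the share of Tgfb2 was 17.6 ± 4.25%, 19.5 ± 3.11% and 20.01 ± 3.09%, while the share of Tgfb3 was 37.2 ± 4.79%, 30.0 ± 3.42% and 34.8 ± 4.81%, beside 35.8 ± 2.68% in vehicle mice and 34.1 ± 3.78% in sham mice. The ratio of Tgfbr2 to Tgfbr1 ran from 1.22 to 2.72 in vehicle mice, against 0.860 to 1.25 in sham mice, so the groups overlapped slightly. It ran from 1.27 to 2.35 at 10 mpk, from 1.13 to 1.42 at 30 mpk and from 0.957 to 1.80 at 90 mpk. These shares and ratios are descriptions and were not tested.

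**Figure D4:**
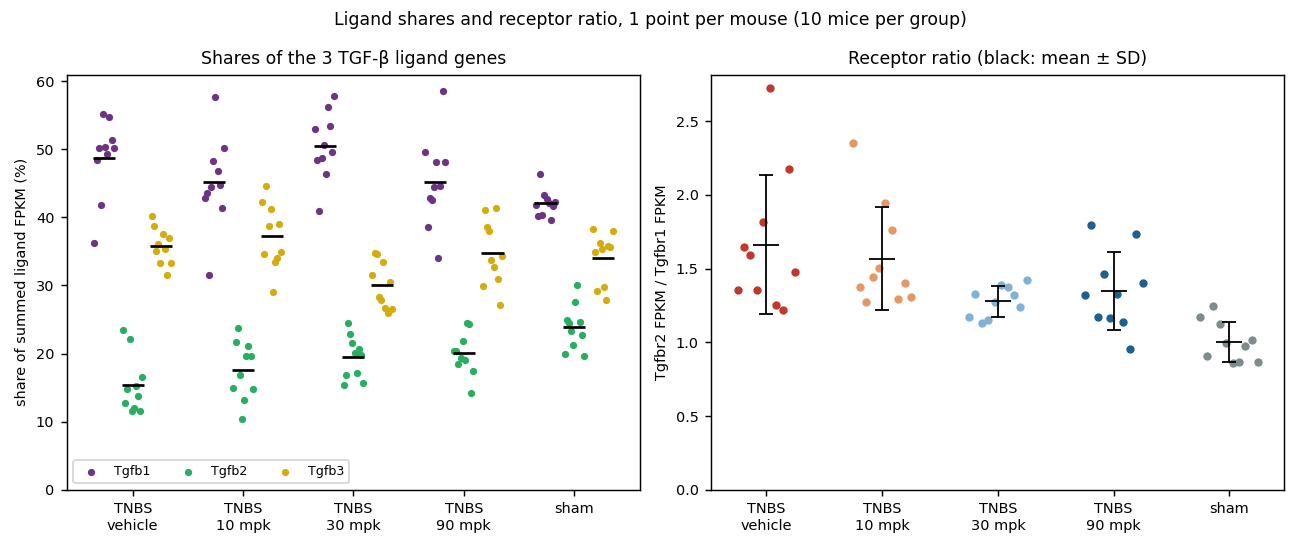
Left, share of each TGF-β ligand gene in their summed FPKM (y axis, percent) per mouse with the group mean as a bar, and right, the ratio of Tgfbr2 to Tgfbr1 FPKM per mouse with mean and SD, for 10 mice in each of 5 groups (x axis). The Tgfb2 share averages 15.4% in vehicle and 23.9% in sham mice, and the receptor ratio reaches 2.72 in 1 vehicle mouse.

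Around these genes, 65 further genes of the pathway were arranged in 6 lists by role, and 63 of them could be tested, Mstn and Nodal falling under the count filter. In vehicle mice 38 were higher and 8 lower than in sham mice. At 30 mpk 6 were higher and 30 lower than in vehicle mice, at 90 mpk 3 were higher and 27 lower, and at 10 mpk none was called. The share of all genes called in either direction was 31.7%, 28.9%, 17.3% and 0.0223% in these comparisons. The median log2 fold change of the 63 was 0.45 in vehicle against sham mice, -0.08 at 10 mpk, -0.27 at 30 mpk and -0.26 at 90 mpk against vehicle mice, beside medians of all genes within 0.02 of 0.

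Genes of the latent complex and its activation rose most uniformly in vehicle mice, 13 of 14 higher and none lower. Fbn1, fibrillin-1 of the microfibrils that hold the latent complex, averaged 10.3 ± 3.76 FPKM in vehicle mice and 2.81 ± 0.447 FPKM in sham mice (SD, n = 10 each; log2 fold change 1.89, adjusted p = 6.33e-08). Itgb3, an integrin subunit that can release TGF-β, rose by 1.01 and Ltbp3 by 0.84. At 30 mpk 11 of the 14 fell against vehicle, Fbn1 by 1.44 (adjusted p = 8.48e-05) and Itgb3 by 0.61. At 90 mpk 10 fell and 1 rose, Fbn1 falling by 1.19 and Itgb3 by 0.53. Ltbp3 had log2 fold changes of -0.27 and -0.28 at 30 and 90 mpk, neither past the test. Ltbp4, singled out after its values were seen, was the gene that rose at 90 mpk, by 0.55.

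Genes known to respond to TGF-β followed, 8 of 12 higher and 1 lower in vehicle mice. Col1a1, a chain of type I collagen, averaged 137 ± 57.4 FPKM in vehicle mice and 19.3 ± 4.08 FPKM in sham mice (log2 fold change 2.86, adjusted p = 2.80e-08), Col3a1 rose by 2.34 and Fn1, the gene of fibronectin, by 2.22. At 30 mpk 7 fell and 2 rose and at 90 mpk 7 fell, with Col1a1 at -1.49 and -1.42, Col3a1 at -1.13 and -1.16, and Fn1 at -1.14 and -1.25 on the log2 scale. These genes are also made in quantity by fibroblasts, of whose markers 5 of 6 fell at each of these doses. The part of these cells in the falls was not tested. Id1, a target of BMP signalling singled out after its values were seen, was the gene that was lower in vehicle mice, by a log2 fold change of -0.35, and it rose by 1.06 at 30 mpk.

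**Figure D5:**
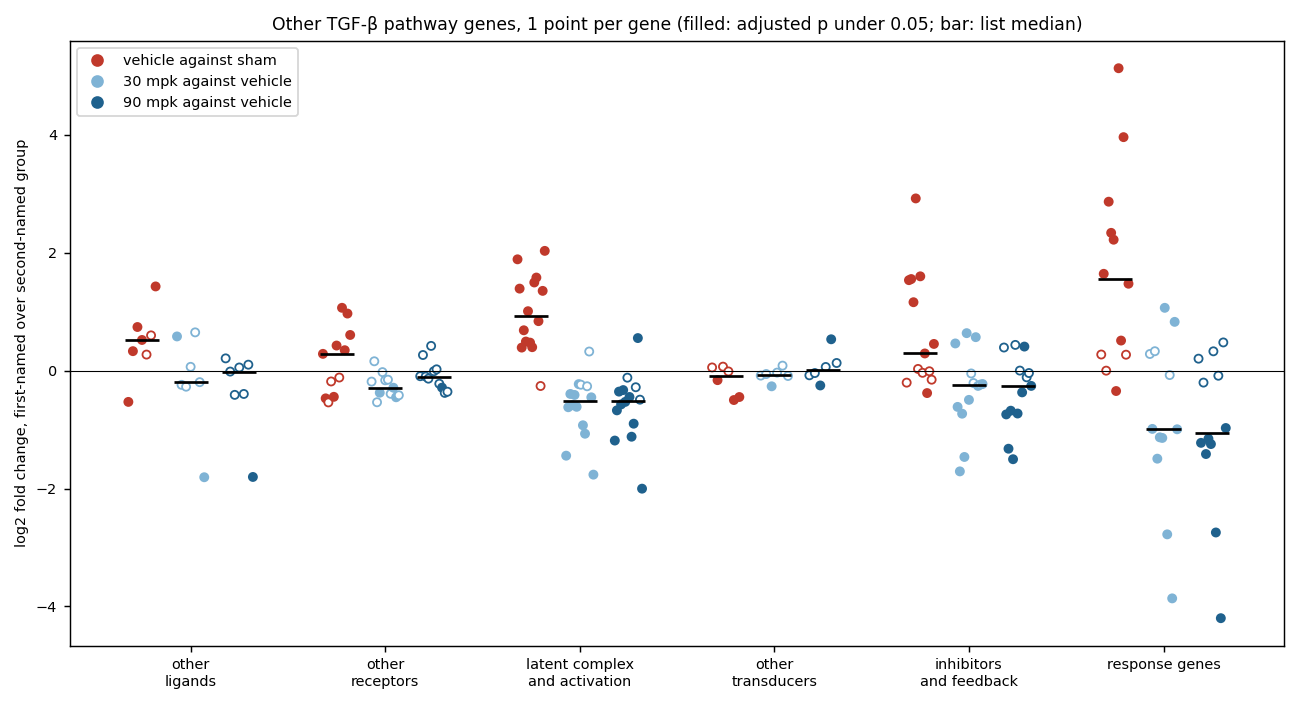
Log2 fold changes (y axis) of 63 further pathway genes by list (x axis) in vehicle against sham mice and at 30 and 90 mpk against vehicle mice, 1 point per gene, filled where the edgeR adjusted p was under 0.05, with the list median as a bar. Of the 14 genes of the latent complex and activation, 13 were higher in vehicle mice and 11 lower at 30 mpk.

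Of 13 inhibitors and feedback genes 7 rose and 1 fell in vehicle mice. Grem1, a BMP antagonist of stromal cells, averaged 112 ± 60.8 FPKM in vehicle mice and 14.9 ± 1.72 FPKM in sham mice (log2 fold change 2.92, adjusted p = 9.16e-07), Pmepa1, which sequesters SMADs, rose by 1.60 and Chrd, chordin, by 1.53. At 30 mpk 3 rose and 7 fell and at 90 mpk 1 rose and 7 fell, with Pmepa1 falling by 0.50 and 0.73 and Chrd by 0.62 and 0.74. Grem1 fell by 1.46 at 30 mpk, and at 90 mpk it averaged 40.5 ± 16.1 FPKM (adjusted p = 0.00445). Refits without 1 library lost the call of Chrd in 16 of 20 cases at 30 mpk and in 5 of 20 at 90 mpk. They lost that of Pmepa1 at 30 mpk in 8 of 20. With the replicate number as a block the adjusted p of Grem1 at 90 mpk was 0.0572. The gene of the list that fell in vehicle mice was Smad6, an inhibitory SMAD of the BMP branch singled out after its values were seen. Its log2 fold change was -0.38 in vehicle against sham mice, and it rose by 0.57 at 30 mpk and 0.41 at 90 mpk against vehicle.

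The remaining lists moved less uniformly. Of 7 other ligands 4 rose and 1 fell in vehicle mice, Bmp7 by 0.74 and Gdf11 by 0.52, with Bmp2 lower at a log2 fold change of -0.53. Bmp2 rose by 0.58 at 30 mpk. Inhbb, the gene of the other activin subunit and singled out after its values were seen, rose by 1.43 in vehicle mice and fell by 1.81 at 30 mpk and 1.80 at 90 mpk. Of 11 other receptors 6 rose and 2 fell in vehicle mice, with Eng, a co-receptor of endothelium, up by 0.97, Bmpr1b, at a low level, up by 1.06 and Acvr1b, the type I activin receptor, down at a log2 fold change of -0.47. At 30 mpk 3 of these 11 fell, Eng by 0.45, and at 90 mpk 1 fell, and none rose at either dose. These counts are no more than the shares of all genes called in either direction, 28.9% and 17.3%. The shares of all genes called lower were 16% and 10.4%, and the count at 30 mpk was above the first of these. Of 6 other transducers none rose and 3 fell in vehicle mice, Zfyve9, which presents SMADs to the receptor, by 0.45, Smad9 by 0.50 and Smad2 by 0.16, and the calls of Smad9 and Smad2 were lost without the filter on low counts, at adjusted p of 0.0544 and 0.0847, and in 13 and 10 of 20 refits without 1 library. Smad9 rose by 0.53 at 90 mpk, a call lost in 9 of 20 such refits. Several calls of named pathway genes were lost without the libraries holding acinar RNA: Bmp2, Smad2 and Smad9 in vehicle against sham mice, Bmp2, Eng, Pmepa1 and Chrd at 30 mpk, and Smad9, Grem1 and Chrd at 90 mpk, at adjusted p between 0.0542 and 0.727.

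Across all 50 mice, the genes whose log2 CPM ordered the mice most like each of the 10 were found among 11560 genes with a mean of at least 2 FPKM. These are Spearman correlations over mice of all 5 groups, so they hold group differences, depth and tissue makeup that the genes share, and are given as descriptions. Tgfbr2 had the closest match, Entpd1 (rho = 0.94), with Spon1 next (0.93). Tgfb1 was most like Fscn1 and Gnai2 (0.91 each), Tgfb3 like Heg1 (0.89) and Slc12a4 (0.87), and Inhba like Col18a1 and Col5a2 (0.90 each). Ltbp1 was most like Dkk3 (0.91) and Antxr1 (0.90), and Tgfbr1 like Tnpo1 (0.86) and Ptbp3 (0.84). The other genes had weaker matches, Ltbp2 with Cyth4 (0.75) and Plek (0.74), Smad3 with Capn5 (0.76) and Arhgap35 (0.73), Smad7 with Osgin1 (0.77) and Ccng2 (0.75), and Tgfb2 with St3gal2 (0.73) and Apbb1 (0.70).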

How the data were processed

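The authors deposited, in 1 table, raw read counts and FPKM values of 56691 genes in 50 mice, with exon lengths, symbols and GRCm39 coordinates, per the file headers. The submitters' processing notes name HISAT2 2.2.1, HTSeq 0.6.1, cutadapt 1.9.1 and DESeq2, with GRCm39 as the build. How each tool was run, whether counting used strand and how reads matching several genes were handled is not given in the sources used here. Of deposited FPKM values resting on at least 500 counts, 99.997% lay within 1% of values recomputed from counts, exon lengths and library totals.

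Groups were taken from the treatment labels. The labels do not say whether mice of a group were housed or handled apart, so p-values measure the spread between these mice. Tests were run in R 4.3.3 with edgeR 4.0.16 (quasi-likelihood test, robust estimation, TMM scaling, filterByExpr with a count minimum of 10) on the counts of the 20 mice of each pair of groups, adjusted over 17928 genes. All 10 comparisons were fitted without covariates. The fits were tried on simulated counts that gave a gene the same spread in both groups of a comparison. Spread that differs between groups, as that of Inhba does here, was not simulated. Intervals of a log2 fold change are 95% ones, and an SD is over 10 mice. CPM sums used the library totals.

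The 10 genes, the pathway lists and the 11 marker lists (58 genes) were chosen with earlier results of these data known. Besides the 10 genes, the rule named up to 3 called genes per pathway list with the smallest p in vehicle against sham mice, and the 2 most similar genes of each of the 10. Others are said to be chosen after their values were seen. Alternatives were RLE scaling, no filter, DESeq2 1.42.0, all 50 mice in 1 fit, limma 3.58.1 on log2(FPKM + 0.5), quantile normalization with limma-voom, the replicate number as a block, and leaving out each of 20 libraries in 4 comparisons. Leaving out the 8 libraries with acinar sums over 100 CPM was added after seeing the data. Sequences are from RefSeq (GRCm38.p6), whose coordinates were not mixed with the GRCm39 ones of the table. Protein sequences were not used here.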

Additional observations from a re-analysis of the deposited data

Results flagged for a closer look

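In 6 of the 50 sets of 10 mice (10 genes in 5 groups), 1 mouse stood apart from the other 9, meaning that its gap to the nearest mouse was more than 0.466 of the range of the group. Chance flags about 1 in 20 such sets. In vehicle mice these were replicate 5 for Tgfbr2, at 30.36 FPKM with the next mouse at 23.42, and replicate 9 for Ltbp2, at 3.12 FPKM with the next at 1.09. In 10 mpk mice they were replicate 1 for Tgfb3, at 8.43 FPKM with the next at 6.12, and replicate 5 for Ltbp1, the lowest at 4.03 FPKM with the next at 6.14. In sham mice replicate 3 was highest for both Tgfb1, at 5.53 FPKM with the next at 3.90, and Tgfb2, at 2.91 FPKM with the next at 2.25. Single libraries were left out only in vehicle against sham mice and in each dose against vehicle mice. There, of these mice, 10 mpk replicate 5 changed a call of its gene, Ltbp1, and vehicle replicate 9 changed the size for Ltbp2, as given above. The other comparisons were not refitted without single mice.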

How the results depend on the processing

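Of the values of the 10 genes recomputed under other settings, 1600 in all, 25 had another sign than the reported one, and none of these was called under either setting. Leaving out 1 library kept 787 values on their side of the threshold, took 9 below it and 4 past it. The other settings did so for 738, 47 and 15. In vehicle against sham mice 4767 to 6089 genes and 7 of the 10 were called with 1 library left out; at 10 mpk 2 to 385 and 0 to 1; at 30 mpk 4236 to 6965 and 6 to 8; at 90 mpk 2486 to 3634 and 3 to 4. Replicate numbers shared by the groups name no common animal, litter or day in the labels, and in each comparison some same-numbered mice correlated negatively. Their median correlation ran from -0.10 in vehicle against sham mice to 0.26 at 10 mpk against vehicle, the highest was 0.53, between 30 and 10 mpk, and 1 to 3 of 10 correlated best with their own number. With the replicate number as a block, calls of all genes numbered 4380 in vehicle against sham mice, 5 at 10 mpk, 3875 at 30 mpk and 2923 at 90 mpk against vehicle mice, and of the 10 genes 7, 0, 5 and 3. The 2 lost at 30 mpk were Ltbp2 (adjusted p = 0.0627) and Smad3 (adjusted p = 0.0616). At 10 mpk against vehicle the 4 called genes became 14 with RLE scaling, 12 without the filter, 3.4e+02 with DESeq2, 1749 with all 50 mice in 1 fit, 19 with limma on FPKM and 15 with quantile normalization, and of the 10 genes DESeq2 called 1 and the fit over 50 mice 4. That fit called 5 of the 10 at 90 mpk against vehicle, not 3. At 90 mpk against sham it called 4399 genes and 4 of the 10, not 8111 and 7. Between 30 and 10 mpk the 386 genes and 4 of the 10 became 173 and 2 without the filter and 96 and 1 with the block, genes numbered 957 with DESeq2 and 869 over 50 mice, and 2 of the 10 were called with quantile normalization. Between 90 and 10 mpk the 89 genes and 1 of the 10 became 41 and 0 without the filter, 450 and 2 with DESeq2, 16 and 0 with limma on FPKM, 53 and 0 with quantile normalization and 2 and 0 with the block, and 0 of the 10 over 50 mice. Between 90 and 30 mpk the 3072 genes and 2 of the 10 became 437 and 0 over 50 mice, and of the 10 genes 1 was called without the filter and 4 with limma on FPKM. Without the 8 libraries with over 100 CPM of acinar genes, a refit chosen after seeing the data, 2 genes were called at 10 mpk against vehicle, 9 and 0 of the 10 between 90 and 10 mpk, and 1 of the 10 between 90 and 30 mpk. The cause of these changes was not tested. Depth limited Ltbp2 most, with as few as 26 counts in a library.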
